A study of Mus musculus with 21 samples.

Results

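The comparison described here was between mouse CD8 T cells that had been stimulated through the T cell receptor repeatedly and cells that had been stimulated only at the start, both kept with vehicle, the control for treatment with N-acetylcysteine. CD8 T cells were isolated from C57BL/6 mice (spleens and inguinal nodes, by depleting other cells with a bead kit) and activated for 48 h on plate-bound antibodies to CD3, a part of the T cell receptor (TCR) complex, and to the costimulatory receptor CD28. They then stayed in medium with 10 ng/mL of the growth factor interleukin-2. In the chronic group, plate-bound antibody to CD3 was present and renewed every 48 h until RNA was taken on day 8, and in the acute group it was left out. Each group had 3 libraries. No gene was altered in either group, the sources used here do not name the vehicle, and the stimulus was an antibody on plastic rather than an antigen on a cell. The series holds 21 libraries in 7 groups. In the other 5, polyclonal C57BL/6 cells were stimulated in the same acute or chronic way, OT-I cells, whose transgenic receptor sees the ovalbumin peptide SIINFEKL, were cultured with B16-F10 melanoma cells with or without that peptide, and chronic cells received 10 mM N-acetylcysteine, an antioxidant and precursor of cysteine. The genes described are those with at least 1 RPKM (reads per kilobase of transcript and library depth, a level that allows for gene length) in at least 3 of the 6 vehicle libraries, which took in 10795 of the 13202 genes in the table.

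Repeated stimulation of CD8 T cells is used as a model of T cell exhaustion, the state that T cells enter in chronic infection and in tumours. Signals from the TCR switch on NR4A and EGR transcription factors, and in exhausted cells surface receptors that restrain T cells, such as PD-1 and LAG-3, stay high. Cells that keep the transcription factor TCF1, the product of Tcf7, are known for self-renewal, and killing is carried out by perforin and granzymes, proteases that are released onto target cells.

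The libraries held between 14696045 and 17539278 reads in genes, and the 100 genes with most reads took 16.3% to 16.6% of reads in the acute libraries and 19.8% to 19.9% in the chronic ones. Markers of the labelled cell type were high. Cd8a, which encodes a chain of the CD8 coreceptor, was at 87.3, 88.7 and 85.2 RPKM in the acute libraries and 144, 146 and 145 in the chronic ones, while Cd8b1, the other chain, was at 179, 179 and 177 and 88.6, 88.8 and 89.1. Cd8a rose and Cd8b1 fell, with no overlap. Cd4 was at 12.98, 14.1 and 14.7 RPKM in the acute and 2.39, 2.16 and 2.63 in the chronic libraries. Of 9 B cell markers, 8 stayed below 1 RPKM in all 6 libraries, and the sum of the list was 4.99 to 6.51 RPKM in acute and 3.37 to 4.58 in chronic cells. Of 8 melanocyte markers, 2 (Tyr and Tyrp1) had no read, and the sum was 10.4 to 11.2 RPKM in acute and 1.54 to 2.18 in chronic cells. The summed markers of myeloid cells were low, and higher under chronic stimulation, with sums of 8.91 to 12.1 and 17.6 to 20.03 RPKM for 5 macrophage genes, 4.62 to 6.12 and 17.1 to 18.3 for 4 dendritic cell genes, and 3.75 to 5.01 and 25.9 to 29.3 for 3 granulocyte or mast cell genes. Most of the macrophage sum was Cd68, a lysosomal protein, at means of 9.91 and 15.98 RPKM. Of the same list, Adgre1 (0.0341 and 0 RPKM) and Mpeg1 (0.0781 and 0.0183) were near 0. Itgam (0.653 and 1.79 RPKM) and Cd14 (0.157 and 1.06) were low but higher in chronic cells. Of the dendritic cell genes, Flt3 was at 0.0231 and 0.0436 RPKM. Itgax (2.53 and 7.52 RPKM), Xcr1 (2.81 and 8.13) and Zbtb46 (0.0623 and 1.96) were higher in chronic cells. Itgam, Cd14 and Zbtb46 passed the level filter through the chronic libraries alone, so their difference was built into the filter. The part of other cell types in the results was not tested. In bulk RNA, fewer cells of a type and less RNA per cell cannot be told apart.

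Differences were tested with limma on log2(RPKM + 1), in a fit over all 21 libraries with p-values adjusted over 12630 genes, and a gene was called at an adjusted p under 0.05. Of the 10795 members, 2927 (27.1%) were called higher and 4247 (39.3%) lower under chronic stimulation. With a change of at least 2-fold on the log2(RPKM + 1) scale as well, 736 (6.82%) were called higher and 593 (5.49%) lower, and at 4-fold the numbers were 246 and 104. Replicate libraries were alike, with correlations of 0.99677 to 0.99782 on the log2 scale. Acute library 3 stood furthest off, with a chi-square of reads per gene of 5.02 and 4.20 against acute libraries 1 and 2. The other replicate pairs had 1.74 to 2.43. The median standard error, from a spread shared by all 21 libraries, was 0.0773 on the log2 scale. Of the 7174 called genes, 4325 changed by under 1.5-fold. The labels do not say that the libraries came from separate cultures or animals, so the p-values measure the spread between these libraries, which may be technical. The median log2 change of all members was -0.0745, and the counts of each gene list below stand beside these shares of 27.1% and 39.3%. Among the members, 218 passed the level filter through the acute libraries alone and 373 through the chronic ones alone, so that their difference was built into the filter. The genes nearest to the filter were Dapk1 inside it, with a third-highest value of 1.0027 RPKM, and Slc25a43 outside it, with 0.99989.

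**Figure D1:**
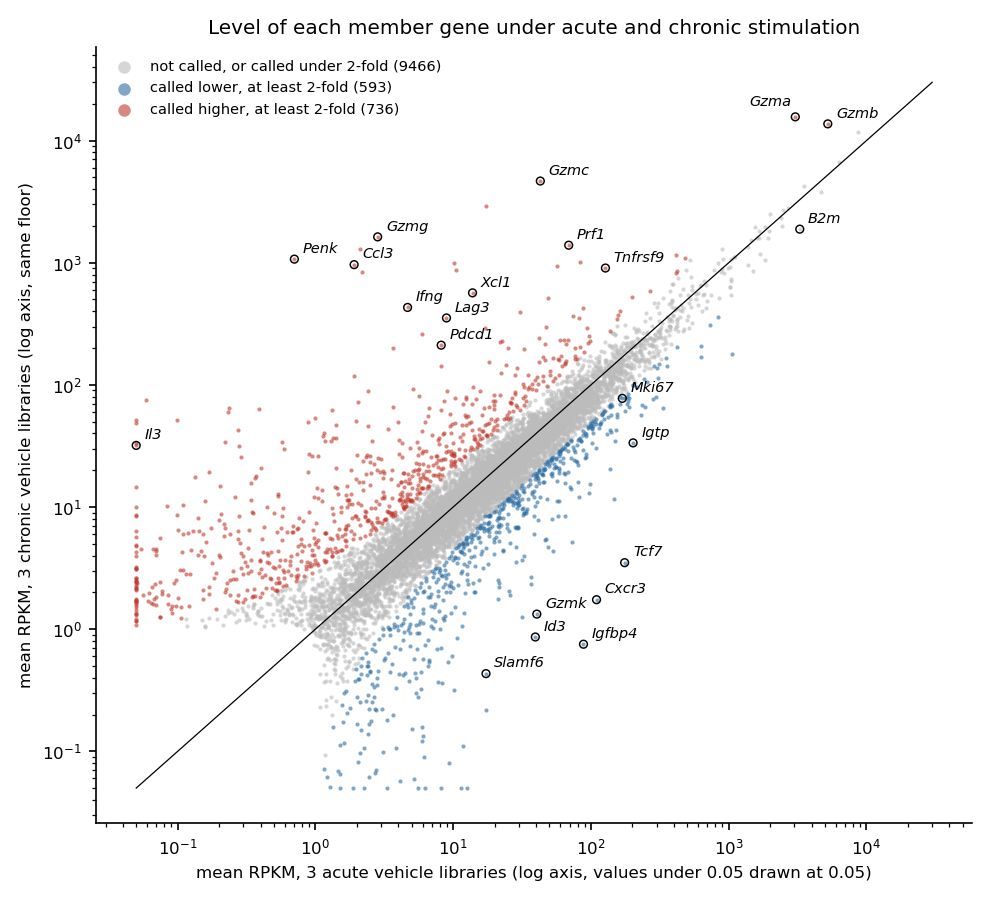
Each point is 1 of 10795 member genes, with its mean RPKM over 3 acute libraries on the x axis and over 3 chronic libraries on the y axis, both logarithmic. The line marks equal levels. The 736 genes drawn above it in red reach further from the line than the 593 drawn below it in blue. On the log2(RPKM + 1) scale, which the axes do not use, Penk, Gzmg, Gzmf and Ccl3 have the 4 largest rises.

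Most of the largest rises were in genes of secreted products. Penk, which encodes the opioid peptide precursor proenkephalin, was at 0.673, 0.819 and 0.617 RPKM in the acute libraries and at 1072, 1052 and 1086 in the chronic ones, a log2 difference of 9.30 (SE 0.0768) and the largest of any member. Penk passed the filter through the chronic libraries alone, so its difference is given with no test. Next came Gzmg, Gzmf, Ccl3, Serpinb9b, Gzmd, Gzmc, Gzme, Ifng and Ccl4, described below with their families. They were followed by Slc17a6, the vesicular glutamate transporter VGLUT2, at 0.0587 ± 0.0310 RPKM (mean ± SD, n = 3 libraries in each group here and below) in acute and 75.1 ± 0.282 in chronic cells. Inhba, which encodes a subunit of the TGF-beta family ligand activin A, rose from 0.0259 to 51.5 RPKM, and 2 of its 3 acute libraries had no read. Crabp2, a carrier of retinoic acid, rose from 0.0435 to 48.97 RPKM. Filip1 and Ccdc184 rose from 0.231 to 59.6 and from 0.235 to 65.1 RPKM. These genes too passed the filter through the chronic libraries alone, as did Il3, Ccl9, Egr2, Il1r2, Cd200, Cth, Sdc1 and Gzmn, named below. Since 1 is added to each RPKM before the logarithm, the log2 differences of genes as low as these understate the ratios of their means. For 9 members every acute library had no read. The highest of them were Osr2, a zinc finger factor at a mean of 33.5 RPKM in chronic cells, at least 930.1-fold above the level that 3 reads over the acute group stand for, and the cytokine gene Il3 (at least 440.7-fold).

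The largest fall on the log2(RPKM + 1) scale, which also understates the ratios of falls to near 0, was in Igfbp4. This gene, whose product binds insulin-like growth factors, was at 93.1, 90.05 and 81.7 RPKM in the acute and 0.941, 0.773 and 0.546 in the chronic libraries (log2 difference -5.67, SE 0.0877). Cxcr3, a receptor for interferon-induced chemokines, fell from 109.8 ± 6.41 to 1.74 ± 0.515 RPKM, 62.98-fold. Tcf7, Id3, Gzmk and Slamf6, taken up below, were also among the 15 largest falls. Nov, a secreted matricellular protein, fell from 12.7 to 0.0341 RPKM, and Tlr1, a receptor for bacterial lipopeptides, from 11.7 to 0.110. Each of these genes was lower in every chronic library than in any acute one. Igfbp4, Nov and Tlr1 passed the filter through the acute libraries alone, as did Gzmm, Slamf6, Il6ra, Ifit3 and Cxcl10, named below.

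Of 20 members of a list of cytotoxic molecules, 17 were called higher and 3 lower, and the median log2 change was 2.33. Perforin, the pore-forming protein, was at 80.03, 64.3 and 62.5 RPKM in the acute libraries and at 1381, 1379 and 1413 in the chronic ones, as Prf1 rose 20.2-fold (log2 4.32, SE 0.0773, adjusted p = 3.0e-20). Granzyme B, already at 5716, 5334 and 4667 RPKM in acute cells, reached 13708, 13902 and 13485 in chronic cells. Gzmb thus changed by 2.61-fold, less than its neighbours on the chromosome did. Gzma, at 2973, 3020.0 and 3135 RPKM in acute and 15817, 15817 and 15280.4 in chronic cells, rose 5.14-fold. It became the gene with the highest RPKM among the members in chronic cells, above Gzmb and the actin-binding thymosin gene Tmsb4x (11673 ± 280.3 RPKM). Among the granzymes called higher, C to G rose most, and these are ones that mouse killer cells are known to add on prolonged activation. Gzmc was at 43.5, 43.6 and 41.6 RPKM in the acute libraries and 4515, 4718 and 4756 in the chronic ones. Gzmf was at 2.74, 2.02 and 1.60 and 1286, 1313 and 1255 RPKM, and Gzmg at 3.79, 2.92 and 1.79 and 1641, 1643 and 1600.0. Gzmd rose from 17.3 ± 2.68 to 2900.5 ± 48.4 RPKM and Gzme from 10.2 ± 1.56 to 992 ± 21.9. The ratios of the group means ran from 97.4 for Gzme to 606 for Gzmf. These genes are close copies of each other, so the split of reads among them is uncertain, but together they took 0.00702% ± 0.000617 of all reads in genes in acute libraries and 1.06% ± 0.00462 in chronic ones. All 10 granzyme genes together went from 1.02% ± 0.0684 to 4.38% ± 0.0552 of reads. Gzmn, which lies among them, was at 0.0599, 0 and 0.0586 RPKM in acute and 2.66, 2.53 and 2.40 in chronic libraries. Gzmk fell from 38.8, 40.1 and 42.5 to 1.27, 1.30 and 1.42 RPKM and Gzmm from 9.82, 10.8 and 8.61 to 0.714, 0.406 and 0.676.

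The promoters of granzymes C to G are shown around an 8-base site because these 5 genes rose together and the site differs among them. Each line gives a window of 60 bases upstream of the gene's start in RefSeq (build GRCm38.p6, minus strand), placed around the site and ending short of the start, with the 8 bases at the site in capitals. The cyclic AMP response element, TGACGTCA, was searched for in the 250 bases before each start. It reads the same on both strands and contains none of the motifs named further on. Several other motifs were searched in the same way, and most are not described.
Gzmc, chr14:56234685-56234744, minus strand: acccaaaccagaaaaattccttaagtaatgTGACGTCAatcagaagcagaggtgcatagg
Gzmf, chr14:56211460-56211519, minus strand: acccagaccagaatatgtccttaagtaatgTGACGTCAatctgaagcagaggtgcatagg
Gzmg, chr14:56159627-56159686, minus strand: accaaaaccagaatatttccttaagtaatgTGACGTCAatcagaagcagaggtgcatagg
Gzmd, chr14:56132625-56132684, minus strand: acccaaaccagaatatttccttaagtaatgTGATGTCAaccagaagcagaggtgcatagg
Gzme, chr14:56120658-56120717, minus strand: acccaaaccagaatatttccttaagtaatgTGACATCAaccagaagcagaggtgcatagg
Gzmc, Gzmf and Gzmg held the element itself. Counted from the first capital, Gzmd differed from it by C4T and Gzme by G5A. The site began 57 to 82 bases before the starts, and the 60 bases of the other 4 genes were identical to those of Gzmc at 55 to 57 positions. The element was found in 1.77% of the 27025 genes of the promoter table and in 3.25% of the 8717 members that matched it (80.8% of all members). Of the 19 matched genes of the cytotoxic list, Gzmc, Gzmf and Gzmg held it (15.8%). Another searched motif, AAAGGTCA on either strand, was found in Gzmd and Gzme (10.5% of the 19) and in 1.08% of the matched members. All 5 genes rose at least 97.4-fold, though the split of reads among these close copies is uncertain. Whether the site has a part in the rise was not tested.

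Inhibitors of granzymes rose with them. Serpinb9, which blocks granzyme B in the killer cell itself, went from 78.6, 72.8 and 71.7 to 366, 379 and 364 RPKM. Serpinb9b, its close relative, went from 2.34, 2.40 and 1.84 to 814, 846 and 840.4 RPKM, a 380.2-fold rise, and Serpinb6b from 82.6 ± 2.67 to 1015 ± 26.3. Serglycin (Srgn), the proteoglycan that packs granzymes into granules, rose 2.002-fold, and the death ligands Tnfsf10 (TRAIL) and Fasl rose 7.62-fold and 1.49-fold. The granule membrane gene Lamp1 was the third of the list to be called lower, by 1.10-fold, a call that was lost when the libraries were rescaled to a common median.

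**Figure D2:**
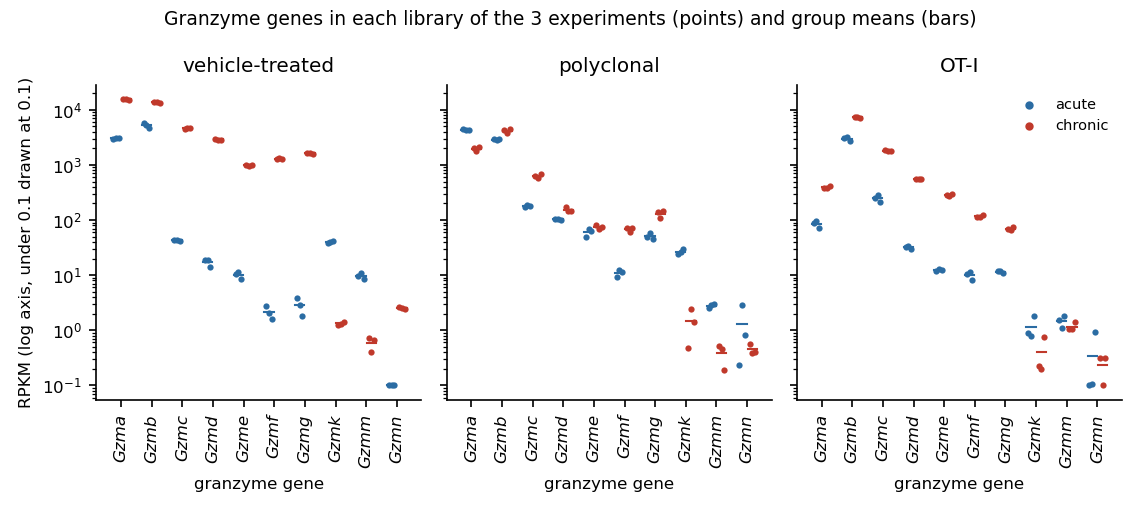
RPKM of the 10 granzyme genes (log axis) in each acute (blue) and chronic (red) library of the vehicle, polyclonal and OT-I experiments, with bars at the group means. In the vehicle panel, Gzmc to Gzmg stand far apart between the groups while Gzmk and Gzmm go the other way, and in the polyclonal panel Gzma is lower in the chronic libraries.

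Several effector cytokines rose to high levels. Of 17 members of the cytokine list, 10 were called higher and 6 lower, with a median log2 change of 2.53. Ifng, the gene of interferon gamma, was at 5.20, 4.67 and 4.13 RPKM in acute and 432, 439 and 421 in chronic libraries (log2 difference 6.25, SE 0.0789, adjusted p = 1.6e-22). Il13, a type 2 cytokine, was at 5.07, 2.93 and 2.99 and 192, 196 and 217 RPKM, and Il3, a growth factor of blood cell precursors, was without a read in the acute libraries and at 31.6, 32.3 and 31.9 in the chronic ones. Every chronic library exceeded every acute one for Ifng and Il13. For Il3, which passed the filter through the chronic libraries alone, such a separation was built into the filter. Il5 rose 10.7-fold, Il10, a cytokine that restrains immune responses, 7.07-fold, Csf2 (GM-CSF) 6.16-fold, Csf1 (M-CSF) 14.3-fold and Spp1, which encodes osteopontin, 16.5-fold, the last to 932 ± 29.9 RPKM. Il4 was low in both groups, at 1.23 and 1.70 RPKM (adjusted p = 0.21, and 0.021 without acute library 2). Il21, the T cell growth factor of helper cells, stayed below the filter at 0.00714 and 0.826 RPKM. The 6 that fell included both lymphotoxins. Lta was at 55.02, 48.9 and 38.2 RPKM in acute and 5.39, 6.02 and 5.15 in chronic libraries, and Ltb fell from 283 ± 11.01 to 76.1 ± 1.47. Tnf, their neighbour in the same family, fell by less, from 31.9, 26.6 and 27.2 to 23.7, 22.5 and 21.97 RPKM (log2 -0.31, SE 0.0644, adjusted p = 2.8e-04).

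Of 7 chemokine members, 5 rose by at least 2-fold. Ccl3 (MIP-1 alpha), a chemokine of inflammation, was at 2.11, 1.64 and 1.99 RPKM in acute and 963, 942 and 988 in chronic libraries. Ccl4 (MIP-1 beta), its close relative, was at 9.09, 11.3 and 11.3 and 848, 855 and 894. Ccl9, which lies next to them, rose from 0.0987 ± 0.0659 to 52.05 ± 2.06 RPKM. Xcl1 (lymphotactin), which draws cross-presenting dendritic cells, was at 12.7, 13.3 and 15.5 RPKM in acute and 567, 560.3 and 572 in chronic libraries, and Ccl1 rose 54.2-fold. Ccl5 did not pass the test, at 158 ± 11.4 and 155 ± 2.95 RPKM (adjusted p = 0.75), and Cxcl10 fell from 1.40 to 0.467 RPKM.

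Genes that TCR signals induce were high in the cells with continued antibody, with 17 of 20 called higher, 1 lower and a median log2 change of 2.29. The nuclear receptor genes of the NR4A family rose together. Nr4a1 was at 1.13, 1.15 and 1.17 RPKM in acute and 38.97, 40.1 and 41.5 in chronic libraries, Nr4a2 at 1.31, 1.22 and 1.41 and 61.4, 62.4 and 63.4, and Nr4a3 at 1.39, 1.13 and 1.38 and 34.4, 34.2 and 35.5. Of the EGR zinc finger factors, Egr2 rose 56.9-fold and Egr3 33.8-fold, from about 1 RPKM in acute cells, while Egr1 was already at 32.5 ± 2.66 RPKM there and rose 2.96-fold. Receptors of the TNF receptor family rose as well. Tnfrsf9 (4-1BB) was at 148, 129 and 106 and 905, 915 and 893 RPKM, Tnfrsf4 (OX40) rose 9.70-fold and Tnfrsf18 (GITR) 2.34-fold. Il2ra, the alpha chain of the interleukin-2 receptor, rose 2.24-fold, Irf8 12.9-fold and Irf4, a factor that scales with TCR signal strength, 1.88-fold. Myc changed little, from 65.9 ± 6.07 to 76.3 ± 0.708 RPKM (log2 0.21, adjusted p = 0.0018). The activation markers Cd69 (48.1 and 51.2 RPKM) and Cd44 (39.4 and 37.02) did not pass the test, and Dusp6 was the only list member called lower.

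Genes that damp signalling followed in the same direction in 20 of 28 cases, with 5 called lower and a median of 0.74. Rgs16, a regulator of G protein signalling, was at 5.78, 6.29 and 5.60 RPKM in acute and 252, 259 and 266 in chronic libraries (log2 5.24, SE 0.0478, adjusted p = 1.1e-24). Rgs2 rose 35.96-fold and Rgs1 10.6-fold. Tnfaip3 (A20), which ends NF-kappaB signalling, rose 9.97-fold, the ERK pathway inhibitor Spry2 8.67-fold, the ubiquitin ligase Cblb 3.09-fold and the phosphatase Dusp5 3.43-fold. Socs2 fell from 29.5 ± 0.877 to 6.88 ± 0.0514 RPKM and Dusp1 from 11.8 ± 0.616 to 4.99 ± 0.712. Of 23 genes of the TCR complex and its proximal kinases and adaptors, 9 were called higher and 9 lower (39.1% each). Only Themis and Prkcq fell by at least 2-fold. Themis, which tunes TCR signals, went from 73.04, 67.5 and 72.8 to 14.1, 13.9 and 14.2 RPKM, whereas Cd3e, a chain of the complex, was at 204 ± 4.94 and 227 ± 1.13 (adjusted p = 0.1).

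Of 16 inhibitory receptors, 10 were called higher, 9 of them by at least 2-fold, and 2 lower, with a median log2 change of 1.91. Pdcd1, which encodes PD-1, was at 7.66, 8.003 and 8.88 RPKM in acute and 207, 214 and 213 in chronic libraries (log2 4.53, SE 0.0757, adjusted p = 1.1e-20). Lag3, which binds MHC class II, was at 8.72, 9.34 and 8.76 and 349.6, 358 and 352 RPKM and had the largest change of the list, 39.5-fold. Havcr2 (TIM-3) was at 25.6, 23.9 and 26.1 and 199, 203 and 204 RPKM. The groups did not overlap for any of these 3 genes. Tigit rose 10.1-fold, Ctla4 3.76-fold, Cd244 (2B4) 7.93-fold and Klrg1 9.49-fold, and Entpd1 (CD39) 1.47-fold. Cd200 rose 33.96-fold but from 0.338 RPKM. Receptors of this kind did not all rise. Cd160 (40.6 and 37.1 RPKM, adjusted p = 0.16), Btla (5.43 and 4.39, 0.11), Vsir and Cd200r1 did not pass the test, and Cd101 and Lair1 fell 2.44-fold and 1.40-fold. The call of Lair1 was lost without acute library 1 (adjusted p = 0.068) or chronic library 3 (0.081).

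**Figure D3:**
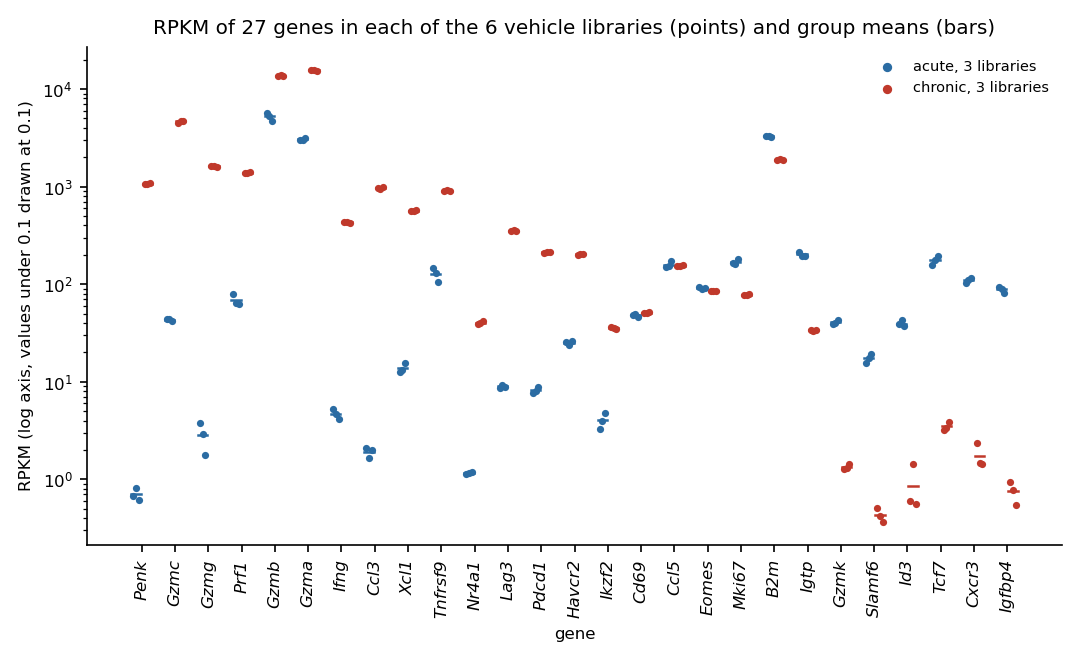
RPKM (log axis) of 27 genes in the 3 acute (blue) and 3 chronic (red) vehicle libraries, with bars at the group means. From Penk to Ikzf2 every chronic library lies above every acute one. Cd69, Ccl5 and Eomes lie at nearly the same level in both groups. From Mki67 to Igfbp4 every chronic library lies below every acute one. Penk passed the filter through the chronic libraries alone, and Slamf6 and Igfbp4 through the acute ones alone. For these genes the separation was built into the filter.

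Among 18 transcription factors of effector and exhausted cells, 10 were called higher, 5 lower, and the median log2 change was 0.73. Tox, the factor best known from exhausted cells, was not a member. It was at 1.04, 0.883 and 1.26 RPKM in the acute libraries and at 0.791, 0.560 and 0.999 in the chronic ones, so the groups overlapped at a level near 1 RPKM. Ikzf2 (Helios) rose most, from 3.30, 3.99 and 4.77 to 35.99, 35.2 and 34.4 RPKM. Zeb2 rose 6.81-fold from 0.954 RPKM, Bhlhe40 3.15-fold, Prdm1 (BLIMP-1) 2.56-fold, Tbx21 (T-bet) 2.18-fold and Batf 1.88-fold. Tbx21 was at 32.4, 33.6 and 34.99 RPKM in acute and 71.2, 72.9 and 76.3 in chronic libraries. Its relative Eomes stayed at a like level, 94.2, 90.2 and 90.3 and 85.7, 84.4 and 85 RPKM (log2 -0.11, SE 0.0399, adjusted p = 0.029), and its call was lost after rescaling to a common median (0.16) and without acute library 1 (0.12) or any 1 of the chronic libraries (0.051 to 0.078). Nfatc2, a calcium-dependent factor, fell 2.60-fold, while Nfatc1 (26.8 and 28.9 RPKM, adjusted p = 0.063) and Id2 (657 and 714, 0.11) did not pass the test.

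Of 19 genes of memory and self-renewal, 12 were called lower, 9 of them by at least 2-fold, and 5 higher, with a median log2 change of -0.92. Tcf7 was at 158, 176 and 192 RPKM in the acute libraries and at 3.23, 3.37 and 3.90 in the chronic ones, 50.1-fold lower (log2 -5.29, SE 0.0674, adjusted p = 1.7e-22). Id3, an inhibitor of E proteins, was at 38.8, 42.6 and 37 and 0.592, 1.44 and 0.560 RPKM, and Slamf6, a surface marker of TCF1-positive cells, at 15.5, 17.4 and 19.05 and 0.513, 0.420 and 0.364. No chronic library came near an acute one for Tcf7 and Id3. Slamf6 passed the filter through the acute libraries alone, so for it such a separation was built into the filter. Klf2 and its target S1pr1, the receptor that lets T cells leave lymph nodes, fell 8.21-fold and 12.1-fold, the survival gene Bcl2 3.28-fold and Il6ra from 4.11 to 0.0576 RPKM. Lef1, the close relative of Tcf7, fell 2.09-fold, to 19.9 ± 0.547 RPKM. Other genes of the list rose. Il7r, the receptor of the survival cytokine interleukin-7, rose from 70.4, 76.5 and 89.6 to 151, 154 and 151 RPKM. Bcl6 rose 3.90-fold, Bach2 1.76-fold and Cd27 1.49-fold, while Foxp1 and Myb did not pass the test.

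Receptors for migration mostly fell, with 15 of 22 members called lower and 5 higher. Beside Cxcr3 and S1pr1, Itgb7, a chain of gut-homing integrins, fell from 143, 148 and 147 to 11.4, 11.1 and 12.4 RPKM, and Ccr2 from 331 ± 19.2 to 64.7 ± 1.497. Ccr1 rose 14.8-fold and Ccr8 11.2-fold, each from under 3 RPKM in acute cells, and Cxcr6 rose 1.84-fold to 266 ± 8.61 RPKM. Cytokine receptors split, with 10 of 24 called higher, 11 lower and a median change of 0.004. The chains for interleukin-2 rose, Il2rb from 482 ± 23.4 to 1102 ± 5.92 RPKM, and so did Il12rb2 (3.67-fold) and the decoy receptor Il1r2 (163-fold). Receptors for interleukin-18 and interferons fell. Il18r1 was at 68.1, 71.9 and 80.02 and 5.25, 4.78 and 5.49 RPKM, Ifnar2 fell 3.66-fold, and Ifngr2, a chain of the interferon gamma receptor, was at 5.91, 5.06 and 5.84 and 1.15, 1.07 and 1.06 RPKM. Ifngr1, the other chain, stayed abundant, at 368 ± 6.34 and 257 ± 2.75 RPKM. Of 18 costimulatory receptors and TNF family ligands, 8 were called higher and 6 lower. Cd28 rose 2.05-fold, Cd226 (DNAM-1), which competes with TIGIT for its ligands, fell 5.21-fold, and Icos was at 68.2 and 67.4 RPKM (adjusted p = 0.74).

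Receptors better known from natural killer (NK) cells rose in 13 of 17 cases, with 2 called lower and a median log2 change of 1.11. The signalling adaptors rose most. Fcer1g was at 14.9, 19.5 and 16.7 RPKM in acute and 286, 299 and 285 in chronic libraries, and Tyrobp (DAP12) at 3.25, 2.16 and 2.26 and 38.1, 34.2 and 31.8. Klra7, a Ly49 receptor, rose 8.37-fold, though reads of the near-identical Klra genes can be split wrongly among them. Klrc1 (NKG2A) rose 2.58-fold, Klrk1 (NKG2D) 1.70-fold and Klrd1 (CD94) 1.57-fold. Of the defining NK cell markers, Ncr1 stayed below 1 RPKM in all 6 libraries, and Klrb1c (NK1.1) was at 8.46, 8.61 and 8.96 and 10.4, 10.8 and 10.3 RPKM (adjusted p = 0.081, and 0.045 after rescaling to a common median). Among other genes usually named for other cell types, the stem cell factor receptor gene Kit rose from 1.12 ± 0.116 to 13.8 ± 0.101 RPKM, Sdc1, a plasma cell marker, from 0.134 ± 0.0903 to 17.4 ± 0.900, and the dendritic cell marker Itgax (CD11c) from 2.53 ± 0.437 to 7.52 ± 0.378. The other plasma cell markers averaged under 1 RPKM in both groups, with Jchain at 0.135 and 0.377, Mzb1 at 0.176 and 0.981 and Derl3 at 0.586 and 0.319. Whether these come from T cells was not tested.

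Genes that interferon gamma is known to induce fell while Ifng itself rose. Of 24 members, 23 were called lower, 15 of them by at least 2-fold, and 1 higher, and the median log2 change was -1.17. Iigp1, an immunity-related GTPase, fell from 34.4, 28.6 and 31.9 to 1.02, 1.39 and 1.35 RPKM. Igtp, another of these GTPases, was at 215, 197 and 195 and 33.7, 33 and 33.8 RPKM (log2 -2.56, SE 0.0468, adjusted p = 4.3e-20), and the guanylate-binding protein gene Gbp2 at 83.1, 77.3 and 82.5 and 16.4, 16.2 and 15.8. Irf1, a transcription factor of this response, fell 2.06-fold, and Nlrc5, which drives MHC class I genes, 5.04-fold. The class I genes fell less, B2m from 3279 ± 24.7 to 1883 ± 31.3 RPKM and H2-K1 from 1016 ± 26.9 to 631 ± 11.8. Cd274 (PD-L1) was the exception and rose from 9.83, 9.43 and 10.03 to 25.8, 27.2 and 26.8 RPKM. Of 26 genes of the wider interferon-stimulated list, 20 were called lower (median -0.68), among them Oas3 (6.49-fold) and Ifit3 (19.9-fold), whereas Isg15 was at 14.8 and 14.5 RPKM (adjusted p = 0.88).

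The 250 bases before the starts of Igtp and Gbp2 are given as examples of this group, with the core of the interferon-stimulated response element, GAAANNGAA on either strand, in capitals (RefSeq, GRCm38.p6).
Igtp, chr11:58199306-58199555, plus strand: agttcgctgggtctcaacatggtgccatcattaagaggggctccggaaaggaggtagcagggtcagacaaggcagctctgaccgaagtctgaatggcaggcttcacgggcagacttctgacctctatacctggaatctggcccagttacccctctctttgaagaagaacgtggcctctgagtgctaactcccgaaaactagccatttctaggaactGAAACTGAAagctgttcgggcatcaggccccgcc
Gbp2, chr3:142620413-142620662, plus strand: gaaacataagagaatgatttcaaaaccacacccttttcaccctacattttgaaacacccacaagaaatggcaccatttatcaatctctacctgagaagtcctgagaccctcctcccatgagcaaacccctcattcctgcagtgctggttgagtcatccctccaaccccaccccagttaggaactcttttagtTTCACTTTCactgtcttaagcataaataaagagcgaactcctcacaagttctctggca
The core began 34 bases before the start of Igtp and 58 before that of Gbp2, on opposite strands. It was found in 8.18% of all genes in the promoter table and 7.48% of the matched members. Only 18 of the 24 genes of the list had a promoter in the table, under 80%, so its share (11 of 18) is void as a check of the list.

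Cell cycle genes fell. All 34 members of the DNA replication list were called lower, 12 of them by at least 2-fold, and 29 of 30 mitosis genes, 19 by at least 2-fold, with medians of -0.91 and -1.07. Mki67 was at 166, 161 and 179.9 RPKM in acute and 77.5, 76.6 and 78.5 in chronic libraries. Ccnb2, a mitotic cyclin, was at 149.7, 156 and 158 and 51.3, 57.9 and 53.6, and Mcm5, a subunit of the replicative helicase, at 134, 134 and 130.1 and 54.02, 53.97 and 54.8. The groups were apart for each of them, by 2.18-fold to 2.85-fold. Top2a fell 2.72-fold, Pcna 1.95-fold and Rrm2, a subunit of ribonucleotide reductase, 2.16-fold. These levels stayed well above 0, and Cenpa, a centromeric histone, was at 127 RPKM in both groups. Of 17 cyclin-dependent kinase inhibitors and G1 regulators, 10 were called lower and 4 higher. Cdkn2a was at 65.6, 65.1 and 63.5 and 17.2, 15.3 and 15.1 RPKM, Cdkn2b and Cdkn2c fell 3.83-fold and 3.48-fold, Cdkn1b fell 1.65-fold, and Cdkn1a (p21) was at 135 ± 7.17 and 132 ± 3.67 (adjusted p = 0.68). Ccnd3 fell 1.83-fold and Ccnd2 did not pass the test.

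The promoter of Ccnb2 is shown for the mitosis genes, with each CCAAT, the site of the factor NF-Y, in capitals (CCAAT searched on both strands, RefSeq, GRCm38.p6).
Ccnb2, chr9:70421555-70421804, minus strand: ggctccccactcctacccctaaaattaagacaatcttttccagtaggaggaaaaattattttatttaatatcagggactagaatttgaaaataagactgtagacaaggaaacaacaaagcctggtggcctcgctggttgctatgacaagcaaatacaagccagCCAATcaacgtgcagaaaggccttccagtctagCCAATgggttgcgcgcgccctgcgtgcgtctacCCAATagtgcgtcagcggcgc
It held CCAAT 3 times, beginning 87, 54 and 21 bases before the start. CCAAT was found in 22 of the 25 mitosis genes that matched the promoter table (88.0%), against 40.7% of the matched members and 37.5% of all genes in the table. A short motif like this one is present in many promoters, and the share is a description of the sequences.

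Genes of mitochondrial metabolism fell by small amounts. Of 36 members of respiratory complex I, 26 were called lower and 1 higher (median -0.33), of 40 genes of complexes II to V, 25 and 2 (median -0.28), and of 23 genes of the TCA cycle and pyruvate entry, 13 were called lower (median -0.24). No gene of the complexes passed 2-fold. The largest fall among them was in Ndufa4, from 319, 319.6 and 331 to 167, 165 and 157 RPKM. Larger changes were in Idh2, mitochondrial isocitrate dehydrogenase, which fell from 22.6, 21.7 and 20.5 to 7.45, 7.37 and 7.12 RPKM, and in Pdk1, which shuts pyruvate out of the cycle, from 45.3, 43.5 and 38.7 to 12.1, 12.4 and 11.7. Of 50 mitochondrial ribosomal genes, nearly all of the large subunit, 27 were called lower and 3 higher. By contrast, 50 of 52 cytosolic ribosomal genes, most of them of the large subunit, were not called. The share of reads of these 52 genes was 1.21% ± 0.0192 and 1.23% ± 0.0226. Both lists left out most genes of the small subunits, which are not described here. Ppargc1a, the coactivator of mitochondrial biogenesis, had at most 4 reads in any vehicle library.

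Of 22 genes of glucose transport and glycolysis, 12 were called lower and 3 higher (median -0.21). Ldha was at 1108, 1046 and 916 RPKM in acute and 632, 646 and 630.2 in chronic libraries, and Pkm fell 1.62-fold. The glucose transporters parted. Slc2a1 (GLUT1) fell from 76.6, 70.96 and 59.7 to 53.02, 50.7 and 53.04 RPKM and Slc2a3 (GLUT3) rose from 43.03, 40.8 and 33.9 to 106, 108 and 112. Acute library 1 was the highest and library 3 the lowest for Ldha, Slc2a1 and the mitophagy receptor Bnip3 (86.1, 74.98 and 53.7 RPKM), and all 3 acute libraries still lay above the chronic ones (25.4, 25.5 and 24.7 for Bnip3). Hypoxia targets split, with 10 of 24 higher and 11 lower. Vegfa rose 2.61-fold and Hilpda 2.65-fold.

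In the oxidant defence, 24 of 35 genes were called lower (68.6%) and 5 higher (14.3%), with a median of -0.44. Nfe2l2, which encodes NRF2, the master factor of this defence, was at 20.3, 20.9 and 21.9 RPKM in acute and 7.78, 8.06 and 8.42 in chronic libraries. Prdx1, a peroxiredoxin, was at 187, 189 and 186 and 72.8, 75.8 and 70.7, Gclm, a subunit of the enzyme that limits glutathione synthesis, at 29.7, 29.5 and 28.7 and 10.6, 8.86 and 9.77, and Mgst2 fell 6.77-fold. Each was lower in every chronic library. Prdx5 rose 2.47-fold and Srxn1 (sulfiredoxin) 2.32-fold, and Hmox1 was at 14.2 and 12.5 RPKM (adjusted p = 0.15). Of 16 metallothionein and zinc transport genes, 8 were called higher and 1 lower, none by 2-fold, and Mt1 was at 330.4 ± 30.4 and 323 ± 16.4 RPKM (adjusted p = 0.84).

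Stress responses were mixed. In the ATF4 program of amino acid supply 16 of 31 genes were called higher and 7 lower, with Cth, an enzyme of cysteine synthesis, rising from 0.263 to 12.05 RPKM and Atf3 6.56-fold. Of 20 endoplasmic reticulum stress genes 12 were called higher and 4 lower, and Hspa5 (BiP) rose from 304 ± 23.7 to 469 ± 3.42 RPKM. Of 28 genes of sterol and fatty acid synthesis 16 were called higher and 5 lower, with Scd1 rising 4.08-fold. Of 17 p53 targets 9 were called lower and 3 higher. In the BCL2 family, where 6 of 15 were higher and 5 lower, the anti-apoptotic Bcl2a1d rose from 8.17 ± 0.573 to 143 ± 3.56 RPKM, while the pro-apoptotic Bcl2l11 (BIM) rose 2.58-fold and Mcl1 did not pass the test. Bcl2a1d and Bcl2a1b are near-identical copies, and their split is uncertain.

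**Figure D4:**
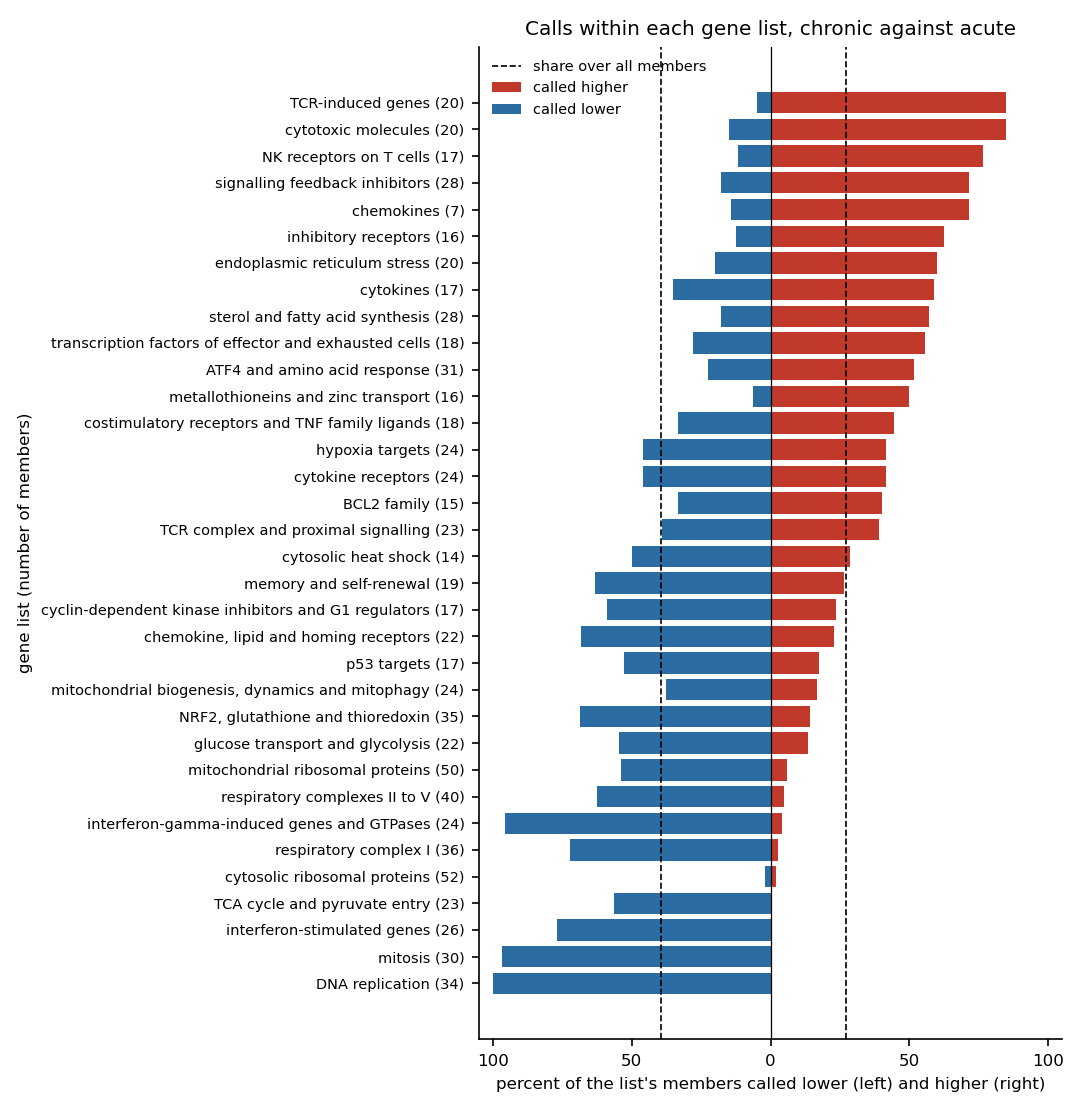
For each gene list, the bar to the right is the percent of its members called higher under chronic stimulation and the bar to the left the percent called lower, with dashed lines at the shares over all members (27.1% and 39.3%). TCR-induced genes and cytotoxic molecules reach farthest to the right, and DNA replication, mitosis and interferon gamma-induced genes farthest to the left.

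The chronic effect in vehicle cells was set against that in the polyclonal and the OT-I experiments, each with its own acute libraries. The difference between the effects was called for 6243 members (57.8%) against the polyclonal and for 6816 (63.1%) against the OT-I experiment. Differences were thus common. These shares count both directions, and the share of all members in either direction alone is no larger. The experiments differed in more than stimulation. Between acute and chronic polyclonal libraries Cd8a went from 101 to 8.48 RPKM, Cd4 from 67.5 to 312 and the B cell gene Cd79b from 3.52 to 114, while the melanocyte gene Pmel was at 2013 and 679.5 in the OT-I libraries, which held melanoma cells. In vehicle cells Cd79b was at 4.96 and 2.73 RPKM and Pmel at 3.72 and 1.03. The part of these in the differences was not tested.

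For most cytotoxic genes the vehicle effect was the higher one. The difference from the polyclonal effect was called positive for 17 of 20 and negative for 2, and the difference from the OT-I effect positive for 13 and negative for 4. Gzmg had the largest positive difference from the polyclonal effect, 7.44 (SE 0.199, adjusted p = 6.2e-17), as it rose from 51.1 to 129.9 RPKM there. The acute levels differed too, with Gzmc at 181 RPKM in acute polyclonal, 251 in acute OT-I and 42.9 in acute vehicle cells, a difference that was not tested. For Ifng the difference between the vehicle and OT-I effects did not pass the test (difference -0.09, SE 0.112, adjusted p = 0.52), and it rose by less in polyclonal cells (7.38 to 118 RPKM, difference 2.42, adjusted p = 3.0e-13). Pdcd1 and Lag3 rose more in vehicle cells, with differences of 3.79 and 3.58 from the polyclonal and 2.89 and 3.79 from the OT-I effect. For 3 cytokines linked to type 2 responses, the vehicle effect was below the polyclonal one. Il13 rose by 7.89 on the log2 scale in polyclonal cells and by 5.47 in vehicle cells (difference -2.42, adjusted p = 2.0e-06). The difference was -4.06 for Il5 (adjusted p = 1.8e-10) and -5.37 for Il4 (adjusted p = 6.7e-12), which was not called in vehicle cells. Against the OT-I effect it was 1.70 for Il13, 3.25 for Il5 and 0.65 for Il4 (adjusted p = 1.1e-04, 4.4e-09 and 0.071).

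For DNA replication, the vehicle effect was lower than the polyclonal in 31 of 34 genes and lower than the OT-I effect in all 34, and 30 of the 34 rose in OT-I cells. For interferon gamma-induced genes it was lower in 22 and 23 of 24. Igtp, for one, rose from 165 to 208 RPKM in polyclonal and from 523 to 849 in OT-I cells. Tcf7 fell in all 3 experiments, with log2 changes of -5.29 in vehicle, -3.80 in polyclonal and -2.17 in OT-I cells. Id3 fell in vehicle cells, with differences of -4.45 and -5.18 from the other effects (adjusted p = 6.5e-14 and 8.4e-15), and was at 2.15 and 2.11 RPKM in polyclonal and 22 and 36.6 in OT-I cells. Eomes, level in vehicle cells, fell from 120.2 to 7.76 RPKM in polyclonal and rose from 10.2 to 33.9 in OT-I cells. The median of mitosis genes was -1.07 in vehicle, -0.93 in polyclonal and -0.22 in OT-I cells. The vehicle effect was called lower than the polyclonal in 15 of 30 and higher in 2. Differences from the polyclonal effect were thus called about as often as over all members (57.8%). The vehicle effect was called lower than the OT-I effect in 29.

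**Figure D5:**
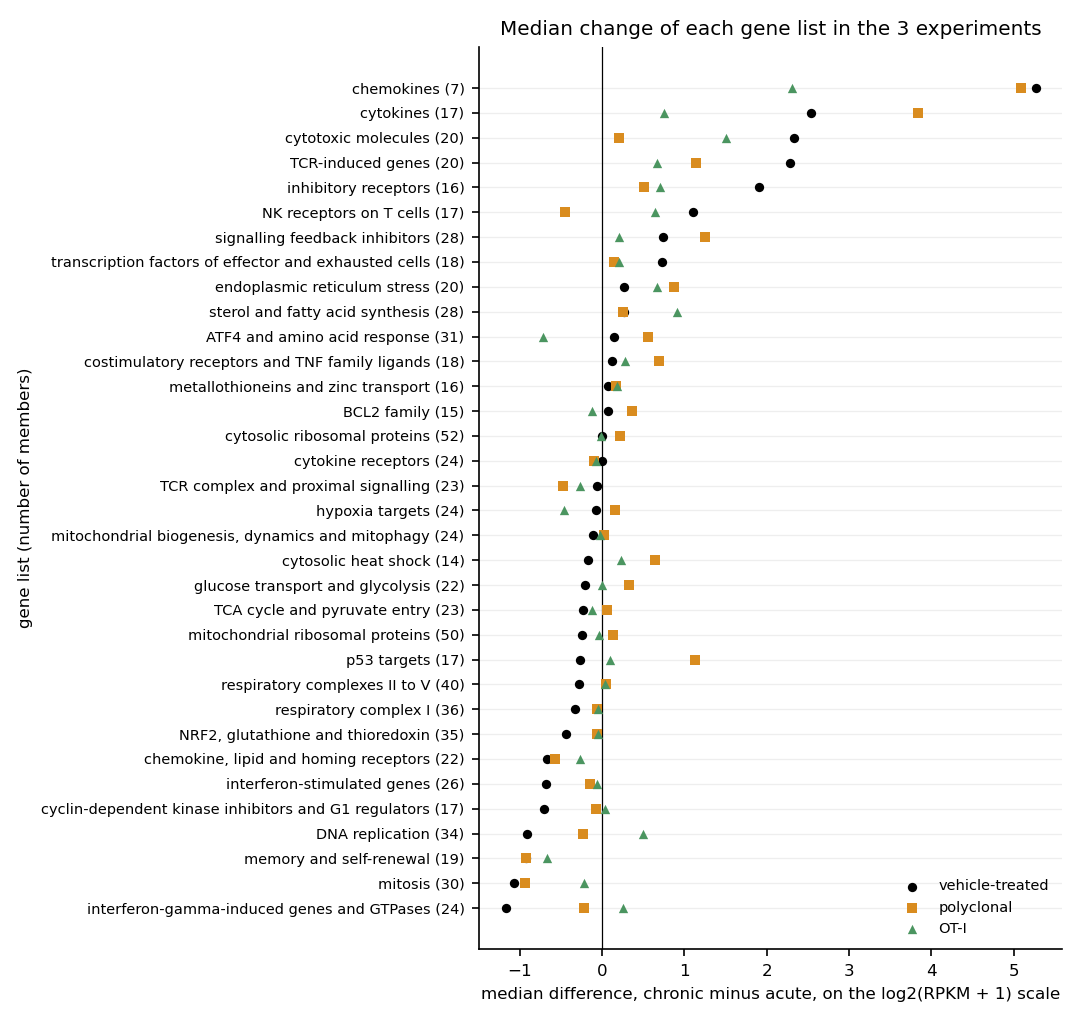
Median log2 difference (chronic minus acute) of each gene list in the vehicle (black circles), polyclonal (orange squares) and OT-I (green triangles) experiments. The vehicle experiment has the highest median for cytotoxic molecules, TCR-induced genes and inhibitory receptors, and the lowest for DNA replication and interferon gamma-induced genes.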

How the data were processed

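RNA sequencing of poly(A)+ RNA (Trizol, NEBNext Ultra kit, per the labels' protocols) gave 1 table of RPKM, which the authors deposited on a linear scale. Build mm9, HTSeq, edgeR and bcl2fastq 2.17 are listed, with no role, in the submitters' processing notes. Aligner, annotation and strand setting are not given there, so reads of a gene and of one that overlaps it on the other strand are not separable. Whole read numbers recovered from the RPKM (100% of genes, within 0.001 read) gave the depths.

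Each column was matched to a sample by its title. Genes with at least 1 RPKM in at least 3 of 21 libraries (12630) were fitted with limma 3.58.1 (R 4.3.3) on log2(RPKM + 1), with a mean for each of 7 groups, 14 residual degrees of freedom, trended variances and Benjamini-Hochberg adjustment. The method was tested on simulated data. The genes named are the 15 largest changes each way, up to 4 per list each way, the most abundant uncalled list members, the largest differences between experiments, the 10 highest levels and a set of T cell genes. Others, chosen after their values were seen, illustrate lists. The members and lists were chosen with earlier results of these data known. Promoters are RefSeq's, build GRCm38.p6. Alternatives were a pseudocount of 0.1, other filters, rescaling to a common median, fits over 6 or 9 libraries, voom on the recovered reads, a replicate block and leaving out each library.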

Additional observations from a re-analysis of the deposited data

Results flagged for a closer look

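Among the named genes, not all members, there were 6 for which the chronic effect in vehicle cells and in another experiment went in opposite directions, each by at least 2-fold and called, and the difference itself was tested with limma. Xcl1 rose in vehicle cells (13.8 to 567 RPKM) and fell in polyclonal cells (7.19 to 1.48), a difference of 7.01 on the log2 scale (adjusted p = 1.4e-17). Tgm2, which encodes transglutaminase 2, fell from 8.004 to 1.0 RPKM and rose from 0.678 to 46.5 in polyclonal cells, a difference of -7.02 (adjusted p = 1.3e-16). Cd4 fell in vehicle cells and rose in polyclonal cells, a difference of -4.33 (adjusted p = 7.5e-16). Nr4a3 rose in vehicle cells and fell from 58.6 to 25.1 RPKM in OT-I cells, a difference of 5.15 (adjusted p = 8.0e-19). Ctla4 rose in vehicle cells and fell from 131 to 63.7 RPKM in OT-I cells, a difference of 2.92 (adjusted p = 2.4e-17). Lta fell in vehicle cells and rose from 47.1 to 139.7 RPKM in OT-I cells, a difference of -4.43 (adjusted p = 3.4e-13). As given above, Cd8a and Cd79b also differed widely between acute and chronic polyclonal libraries, and the OT-I libraries held melanoma cells. The part of cell make-up in these opposite directions was not tested.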

How the results depend on the processing

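The counts of 2927 higher and 4247 lower members stayed within 1.5 times under every alternative run. They were 2934 and 4235 with a pseudocount of 0.1, 2697 and 3997 with a filter of 5 RPKM, 3056 and 4037 after rescaling to a common median, 3294 and 4638 in a fit over the 6 vehicle libraries, 3064 and 4403 with voom on recovered reads, and 2713 to 2790 and 3947 to 3994 when 1 library was left out. With a replicate block they were 3011 and 4321. Deviations from the group mean were correlated at 0.0043, 0.0757 and 0.0767 between same-numbered acute and chronic libraries. Crossing numbers 2 and 3 gave -0.0779 and -0.0708, and acute library 1 with chronic library 2 gave 0.00497. With 3 libraries a group, these small values cannot decide whether the numbers pair the libraries. With no filter the counts were 2915 and 4225, in a fit over members only 2966 and 4303, and over the 9 vehicle and N-acetylcysteine libraries 3377 and 4751. Of 322 named genes, 314 were tested with the filter of 5 RPKM and all 322 under the others, and no call changed direction. After rescaling, 4 lost their call (Actb, Eef1a1, Eomes and Lamp1), and leaving out 1 library ended at most 6. Calls were gained by 21 named genes in the fit over 6 libraries, 27 over 9, 9 with voom, 4 with the replicate block and 2 after rescaling. With 3 libraries a group, small changes are the least certain.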

Other observations

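Genes that changed by at least 2-fold often lay side by side. In RefSeq's gene order (GRCm38.p6, used for neighbours only, 10769 members placed), 255 of 735 genes called higher had a neighbouring member that was also called higher by 2-fold (34.7%), against 1124 of 10034 other members beside such a gene (11.2%). For genes called lower the shares were 160 of 592 (27.03%) and 964 of 10177 (9.47%). No test was run on these shares, and near-identical copies that share reads are counted among them. The longest run was of 9 genes on chromosome 14, Mcpt8, Ctsg, Gzme, Gzmd, Gzmg, Gzmn, Gzmf, Gzmc and Gzmb. Ctsg, the neutrophil protease cathepsin G, went from 0.179, 0.273 and 0.407 to 26.9, 24.7 and 25.9 RPKM. Ctsg passed the filter through the chronic libraries alone, so its difference was built into the filter. Other runs called higher were Csf2, Il3 and Acsl6, Ccl9, Ccl3 and Ccl4, and 5 Klra genes, and runs called lower were 4 guanylate-binding protein genes on each of chromosomes 3 and 5, 4 Ifit genes on chromosome 19, and Il1rl1, Il18r1 and Il18rap on chromosome 1.

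Some neighbours moved apart. Gzmk, which lies next to Gzma, fell 30.4-fold while Gzma rose 5.14-fold. Lag3 rose 39.5-fold and Cd4, next to it, fell 5.83-fold. Ccr1 rose 14.8-fold beside Ccr2, which fell 5.11-fold. Tmevpg1, a non-coding RNA gene beside Ifng, fell from 3.18, 4.31 and 4.09 to 0.112, 0.153 and 0.0529 RPKM while Ifng rose 92.2-fold. Tmevpg1 passed the filter through the acute libraries alone, so its difference was built into the filter.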
